A study of Mus musculus with 12 samples.

Results

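The genes described here encode 10 proteins of water-soluble vitamin uptake, chosen by name: Slc52a2, Slc52a3, Slc46a1, Slc5a6, Slc19a2, Slc19a3, Slc23a1, Cubn, Amn and Tcn2. All 10 symbols were found among the 53715 genes of the deposited expected-count table, and 9 of them passed the filter on low counts and were tested in the edgeR fit. The RNA came from the ileal and colonic mucosa of C57BL/6J mice that were 8 weeks old and, by the methods of the study, male. There were 4 groups of 3 libraries. The control mice of both tissues are labelled Slc39a8-fl/fl, and the methods describe controls as floxed, wild-type and Villin-Cre mice together, so a control library can come from any of these genotypes. The knockout (KO) mice of both tissues are labelled Slc39a8-fl/fl:Villin-Cre. They carry the floxed allele of Slc39a8, a metal transporter gene, and Cre recombinase under the Villin promoter, a promoter of the intestinal epithelium, so the other cells of the mucosa keep the gene.

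Water-soluble vitamins cross the gut epithelium through dedicated carriers in the apical and basolateral membranes of enterocytes. Slc52a3 and Slc52a2 carry riboflavin, Slc46a1 is the proton-coupled folate transporter, Slc5a6 carries biotin and pantothenate with sodium, Slc19a2 and Slc19a3 carry thiamin, and Slc23a1 carries ascorbate with sodium. Cobalamin is taken up in the ileum, where a receptor made of cubilin (Cubn) and amnionless (Amn) binds it together with intrinsic factor, and transcobalamin (Tcn2) then carries it in the blood.

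Some libraries stood apart in genes other than the members. The library totals were 16749138 to 27903083 expected counts. The 7 ileal enterocyte markers were all lower in colon than in ileum of control mice, and 6 of 7 colonic epithelium markers were higher, so the tissue labels were borne out by their markers. Ileum control replicate 3 and ileum KO replicate 1 held little muscle RNA, with a sum of 7 smooth muscle markers of 20.7 to 35.5 CPM (counts of a gene relative to the TMM-scaled library size) against 1878 to 2735 CPM in the other 4 ileal libraries. Their sum of 6 stroma markers was 52.2 to 57.6 CPM against 341 to 628 CPM. Ileum KO replicate 2 held colonic transcripts, with Car1 at 2630 CPM against 3.40 to 143 CPM in the other ileal libraries, Aqp8 at 67.2 CPM against 0 to 0.357 CPM, and the 7 colonic markers summing to 5054 CPM against 1922 to 4253 CPM. Slc39a8 itself was at 8.38, 5.22 and 6.58 CPM in ileum of control mice and at 4.35, 2.62 and 2.79 CPM in ileum of KO mice. In colon it was at 20.8, 20.5 and 20.04 CPM in control and at 7.34, 11.5 and 7.92 CPM in KO libraries. The groups did not overlap in either tissue, and 48.4% of the control mean was left in ileum and 43.6% in colon (over both tissues log2 fold change -1.13, SE 0.17, edgeR adjusted p = 0.382, exact permutation p = 0.005, the smallest possible).

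The levels of the members spanned a wide range. Levels are compared between genes as CPM per kilobase of exon, because a longer transcript gives more reads. In ileum of control mice Tcn2 stood first at 137 ± 8.51 CPM per kilobase (SD, n = 3). Slc52a3 (88.1 ± 12.2) and Amn (85.0 ± 1.28) followed, and these neighbours overlapped in range. Cubn was next at 44.4 ± 28.7 CPM per kilobase, then Slc52a2 at 19.1 ± 2.29 and Slc5a6 at 9.81 ± 2.93, with no overlap between neighbours. Slc19a2 (3.09 ± 0.236) and Slc46a1 (2.97 ± 0.678) overlapped. Slc23a1 and Slc19a3 stood last at 0.222 ± 0.0736 and 0.0615 ± 0.0237 CPM per kilobase.

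In colon of control mice Tcn2 again stood first, at 27.4 ± 1.49 CPM per kilobase. Slc52a3 (8.70 ± 0.411), Amn (7.80 ± 1.78) and Slc52a2 (6.15 ± 1.80) followed, and Amn overlapped with both of its neighbours. Slc19a2, at 2.61 ± 0.0612 CPM per kilobase, stood above Slc5a6 (2.32 ± 0.181), which overlapped with Cubn (2.04 ± 0.220). Slc46a1 was at 0.665 ± 0.139 and Slc23a1 at 0.0811 ± 0.0416 CPM per kilobase, and Slc19a3 was at 0 in all 3 libraries. Cubn thus moved from the fourth place in ileum to the seventh in colon, and Slc19a2 from the seventh place to the fifth. With the length of the longest coding transcript in place of all exons, the order of Amn and Slc52a3 and that of Slc46a1 and Slc19a2 turned round in ileum, as did that of Cubn and Slc5a6 in colon.

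**Figure D1:**
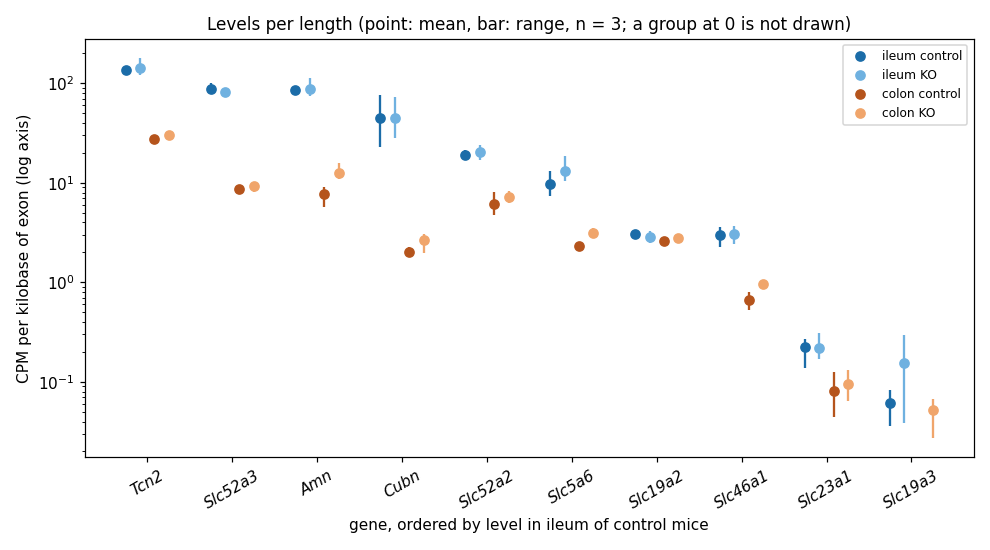
Level of each gene in CPM per kilobase of exon (log axis) in the 4 groups; points are means and bars the range of 3 libraries. Tcn2 stands first in every group, and the drop from ileum to colon is widest for Cubn and close to none for Slc19a2; Slc19a3 at 0 in colon of control mice is not drawn.

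Between tissues the question was how far the carriers follow the ileum. In control mice 8 of the 9 tested members were lower in colon at an adjusted p under 0.1 and none was higher, where 19.6% of all 16558 genes tested were called lower and 35.9% were called in either direction. All 9 had colonic libraries below every ileal library, against 20.4% of all genes. The median log2 fold change of the 9 was -2.15, beside 0.02 over all genes tested. In KO mice 7 of 9 were called lower, where 20.0% of all genes were called lower and 37.1% in either direction, and 8 of 9 did not overlap, against 24.9% of all genes. The median there was -2.08, beside 0.01. Slc23a1, among the 8 called in control mice and among the non-overlapping members of both genotypes, passed the filter on low counts only through its ileal libraries. Its part in these counts is thus no support for the direction. The sum of 9 epithelium markers was 18618 to 23064 CPM in the ileal and 9407 to 10582 CPM in the colonic libraries. In RNA of whole mucosa, fewer cells of a type and less RNA per cell cannot be told apart. With counts scaled to that sum in place of the TMM factors, the median of all genes in control mice moved to 0.96, and 7 members were still called lower in both genotypes. Under that scaling the log2 fold changes in control mice shrank to -3.52 for Cubn, -2.49 for Amn, -2.39 for Slc52a3, -1.38 for Tcn2 and -1.14 for Slc5a6, and in KO mice they were -3.01, -1.75, -2.08, -1.18 and -1.03. A fold change in 1 tissue comparison could not go below an exact permutation p of 0.1, the value each non-overlapping member had.

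**Figure D2:**
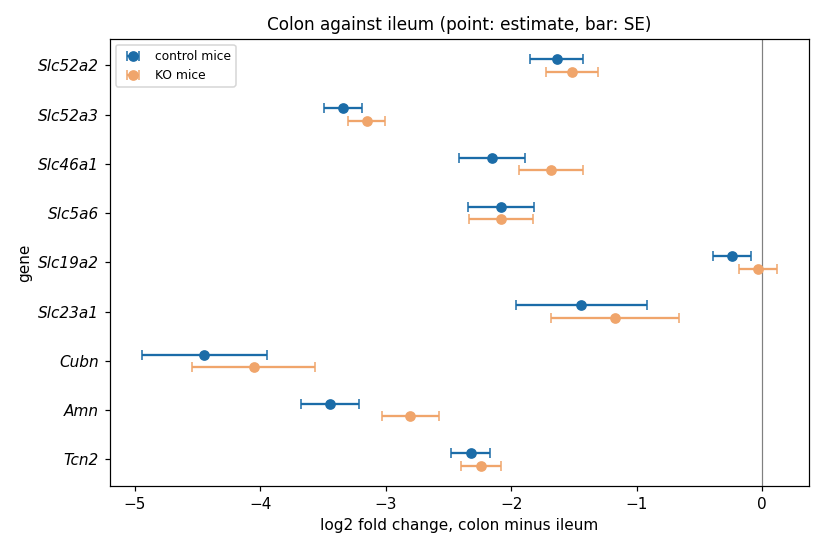
Fold change of colon against ileum (log2, horizontal axis) for the 9 tested members in control and KO mice; points are edgeR estimates and bars their SE. Cubn lies farthest to the left, at -4.45 in control and -4.05 in KO mice, and Slc19a2 lies nearest to 0, at -0.24 and -0.04.

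The cobalamin receptor showed the widest gap. Cubn (ENSMUSG00000026726.10, GRCm38 chr2:13276338-13491813, minus strand) encodes the large ligand-binding subunit, and its longest coding transcript has 67 exons. It was at 495, 345 and 1150.5 CPM in the 3 ileal control libraries and at 1078, 506 and 419.7 CPM in the ileal KO libraries. The colonic values were 27.2, 30.4 and 33.8 CPM in control and 46.2, 45.1 and 29.5 CPM in KO libraries. Every colonic library lay below every ileal one by a wide margin, and the ileal libraries spread widely within each genotype. The colonic mean was 4.59% of the ileal mean in control mice, a 21.8-fold lower level by edgeR (log2 fold change -4.45, SE 0.50, adjusted p = 5.94e-05). In KO mice the log2 fold change was -4.05 (SE 0.49, adjusted p = 1.03e-04). Without ileum control replicate 3 the control value was -3.80, and without both ileal libraries with little muscle RNA it was -3.81 (SE 0.23, adjusted p = 2.14e-07). Of the exon bases of Cubn, 2.46% are shared with Gm13270 on the opposite strand, and strand is not stated for the counting.

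Amn (ENSMUSG00000021278.7, chr12:111271095-111276426, plus strand) encodes the membrane anchor that brings cubilin to the cell surface. It was at 157, 159 and 154 CPM in ileum of control mice and at 209.5, 136 and 144 CPM in ileum of KO mice. Colonic libraries held 16.7, 15.8 and 10.6 CPM in control and 29.1, 20.1 and 20.99 CPM in KO libraries. The ileal control libraries were close together, unlike those of Cubn. The colonic level was 10.9-fold lower in control mice (log2 fold change -3.45, SE 0.23, adjusted p = 1.14e-06) and 6.98-fold lower in KO mice (-2.80, SE 0.22, adjusted p = 4.79e-06). The difference between these 2 fold changes was 0.64 on the log2 scale (SE 0.30, edgeR adjusted p = 0.9999), and 0 members were called for such a difference, as were 0% of all genes, while 169 genes of all tested had an unadjusted p under 0.05, DESeq2 called 1 and limma-voom 0.

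The ratio of Cubn to Amn within a library does not depend on the scaling of libraries. Per kilobase it was 0.268 to 0.919 in the 6 ileal libraries (median 0.424) and 0.173 to 0.392 in the 6 colonic libraries (median 0.219). It was higher in ileum by the exact permutation test within genotypes (p = 0.02, adjusted p = 0.02 over the 2 ratios computed), although the ranges overlapped. The ratio was chosen after the values were seen, and the p-value does not allow for that choice. The 2 ileal libraries with little muscle RNA had the highest ratios, at 0.919 and 0.635. The other 4 ileal libraries were at 0.268 to 0.458, close to the colonic range. By genotype the exact permutation p of the ratio was 0.665.

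Tcn2 (ENSMUSG00000020432.12, chr11:3917192-3932159, minus strand), the blood carrier of cobalamin, was at 292, 284 and 319 CPM in ileum of control mice. In ileum of KO mice it was at 393, 263 and 273 CPM. The colonic values were 62.9, 56.4 and 59.6 CPM in control and 66.1, 65.8 and 64.7 CPM in KO libraries. Colon and ileum were far apart, and the colonic libraries lay close together. The level in colon was 5.01-fold lower in control mice (log2 fold change -2.32, SE 0.16, adjusted p = 1.19e-06) and 4.72-fold lower in KO mice (-2.24, SE 0.16, adjusted p = 1.65e-06).

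Of the riboflavin carriers, Slc52a3 (ENSMUSG00000027463.14, chr2:151996511-152009258, plus strand) is the carrier of the apical membrane. It was at 230.2, 282 and 219 CPM in ileum of control mice and at 204, 236 and 247 CPM in ileum of KO mice. Colonic levels were 23.9, 23.1 and 25.3 CPM in control and 28.2, 22.3 and 26.8 CPM in KO libraries. It had the lowest adjusted p of all members, with a 10.1-fold lower level in colon of control mice (log2 fold change -3.34, SE 0.15, adjusted p = 1.35e-07) and an 8.88-fold lower level in KO mice (-3.15, SE 0.15, adjusted p = 1.89e-07). Slc52a2 (ENSMUSG00000022560.9, chr15:76538832-76544608, plus strand) is a riboflavin carrier found in many tissues. It was at 118, 92.9 and 105 CPM in ileum of control mice and at 132, 93.0 and 116 CPM in ileum of KO mice. Its colonic values were 44.9, 25.9 and 30.7 CPM in control and 45.2, 34.4 and 39.7 CPM in KO libraries. It was 3.11-fold lower in colon of control mice (log2 fold change -1.64, SE 0.21, adjusted p = 1.52e-04) and 2.86-fold lower in KO mice (-1.51, SE 0.21, adjusted p = 2.60e-04). Scaled to the epithelium markers, the log2 fold change of Slc52a2 was -0.70 in control mice (SE 0.21, adjusted p = 0.0109) and -0.45 in KO mice (SE 0.21, adjusted p = 0.0673).

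The balance of the riboflavin carriers differed between the tissues. Per kilobase, the ratio of Slc52a3 to Slc52a2 was 3.07 to 6.03 in the ileal libraries (median 4.196) and 1.06 to 1.77 in the colonic libraries (median 1.31). The tissues did not overlap (exact permutation p = 0.005, the smallest possible, adjusted p = 0.01 over the 2 ratios). This ratio was chosen after the fold changes of both genes were seen. Its p-value does not allow for that choice and adds no support beyond those fold changes. By genotype the exact permutation p was 0.33. Slc52a3 was thus the higher of the pair in all 12 libraries, by a smaller factor in colon.

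**Figure D3:**
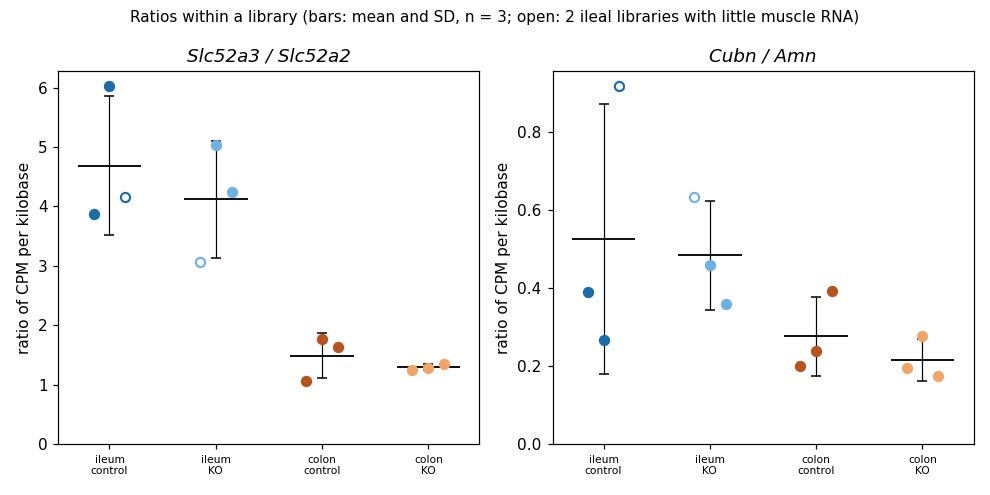
Ratio of CPM per kilobase of Slc52a3 to Slc52a2 (left) and of Cubn to Amn (right) in each library of the 4 groups; bars are the mean and SD of 3 libraries and open points the 2 ileal libraries with little muscle RNA. The riboflavin ratio is at least 3.07 in every ileal library and at most 1.77 in every colonic one, while the ratio of the receptor subunits overlaps between the tissues.

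Slc46a1 (ENSMUSG00000020829.9, chr11:78465697-78472059, plus strand), the folate carrier, was at 9.24, 6.99 and 11.2 CPM in ileum of control mice. In ileum of KO mice it was at 11.4, 9.72 and 7.43 CPM. In colon it was at 1.64, 2.01 and 2.49 CPM in control and at 2.92, 3.21 and 2.74 CPM in KO libraries. The tissues did not overlap in either genotype. Its level was 4.45-fold lower in colon of control mice (log2 fold change -2.15, SE 0.26, adjusted p = 9.90e-05) and 3.21-fold lower in KO mice (-1.68, SE 0.25, adjusted p = 4.92e-04). Scaled to the epithelium markers these values were -1.22 (SE 0.30, adjusted p = 0.00381) and -0.63 (SE 0.29, adjusted p = 0.0715).

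Slc5a6 (ENSMUSG00000006641.12, chr5:31036036-31048924, minus strand), the sodium-dependent carrier of biotin and pantothenate, was at 36.2, 29.2 and 52.1 CPM in ileum of control mice and at 73.6, 41.7 and 42.8 CPM in ileum of KO mice. In colon it was at 8.49, 9.92 and 9.36 CPM in control and at 14.1, 11.1 and 12.1 CPM in KO libraries. Colon was lower than ileum by 4.23-fold in each genotype (control log2 fold change -2.08, SE 0.26, adjusted p = 1.28e-04, KO -2.08, SE 0.26, adjusted p = 1.21e-04). Atraid, on the opposite strand, shares 9.92% of its exon bases, so reads of the shared part cannot be assigned to 1 gene without strand.

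The thiamin carriers differed from the rest. Slc19a2 (ENSMUSG00000040918.12, chr1:164249046-164265385, plus strand), present in most tissues, was at 12.9, 11.4 and 11.3 CPM in ileum of control mice and at 9.59, 12.7 and 10.9 CPM in ileum of KO mice. In colon it was at 10.3, 9.87 and 9.88 CPM in control and at 10.9, 11.4 and 10.04 CPM in KO libraries. All 12 values thus lay within a narrow range. The log2 fold change of colon against ileum was -0.24 (SE 0.15, adjusted p = 0.260) in control mice and -0.04 (SE 0.15, adjusted p = 0.880) in KO mice, and neither passed the test. Its direction depends on the scaling: in control mice it was 0.70 (SE 0.18, adjusted p = 0.00431) when counts were scaled to the epithelium markers, where the median of all genes was 0.96.

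Slc19a3 (ENSMUSG00000038496.16, chr1:83012523-83038448, minus strand), the other thiamin carrier, did not pass the filter on low counts. Its counts were 3, 2 and 6 in ileum of control mice, 7, 3 and 19 in ileum of KO mice, 0 in each colonic control library and 4, 4 and 2 in the colonic KO libraries. A count of 0 allows up to 3 counts, counting error only. In the colonic control libraries this is 0.149 to 0.160 CPM of the library total without the TMM factor. Ileum KO replicate 3, with 19 counts, stood above the rest, and in KO mice the tissues overlapped. Where Slc19a3 was tested, it was called lower in colon of control mice by DESeq2 (adjusted p = 0.0238) and by edgeR with no filter (adjusted p = 0.0326), and not in KO mice (adjusted p = 0.311 and 0.291). Without both ileal libraries with little muscle RNA and ileum KO replicate 2, the ileum of KO mice was left with replicate 3 alone, at 19 counts. Slc19a3 then passed the filter, and its log2 fold change of colon against ileum in KO mice was -2.48, set by that 1 ileal library. In colon its KO libraries lay above the control libraries at 0, with an adjusted p of 1 by DESeq2. No fold change is given against libraries at 0.

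Slc23a1 (ENSMUSG00000024354.11), the apical ascorbate carrier, was also low, with 3 to 20 counts in a library. Mice make ascorbate in the liver, unlike humans. Slc23a1 was at 0.864, 0.444 and 0.849 CPM in ileum of control mice and at 1.01, 0.547 and 0.568 CPM in ileum of KO mice. In colon it was at 0.409, 0.144 and 0.235 CPM in control and at 0.424, 0.207 and 0.290 CPM in KO libraries. The tissues did not overlap in either genotype, but they lay close. It was called lower in colon of control mice (log2 fold change -1.44, SE 0.53, adjusted p = 0.0613) and not of KO mice (-1.17, SE 0.51, adjusted p = 0.110). It passed the filter on low counts only through its ileal libraries, with 3 to 9 counts in the colonic ones, so the filter favoured this direction. The control call was lost without ileum control replicate 1 (-1.30, adjusted p = 0.129) or 3 (-1.31, adjusted p = 0.142), and without colon control replicate 2 (-1.15, adjusted p = 0.199) or 3 (-1.39, adjusted p = 0.158). Without both ileal libraries with little muscle RNA it was also lost (-1.31, adjusted p = 0.117), as it was by DESeq2 (adjusted p = 0.101), by library size only (0.102), with no filter (0.133), with a muscle score as covariate (0.101) and scaled to the epithelium markers, where the value was -0.53 (adjusted p = 0.398).

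**Figure D4:**
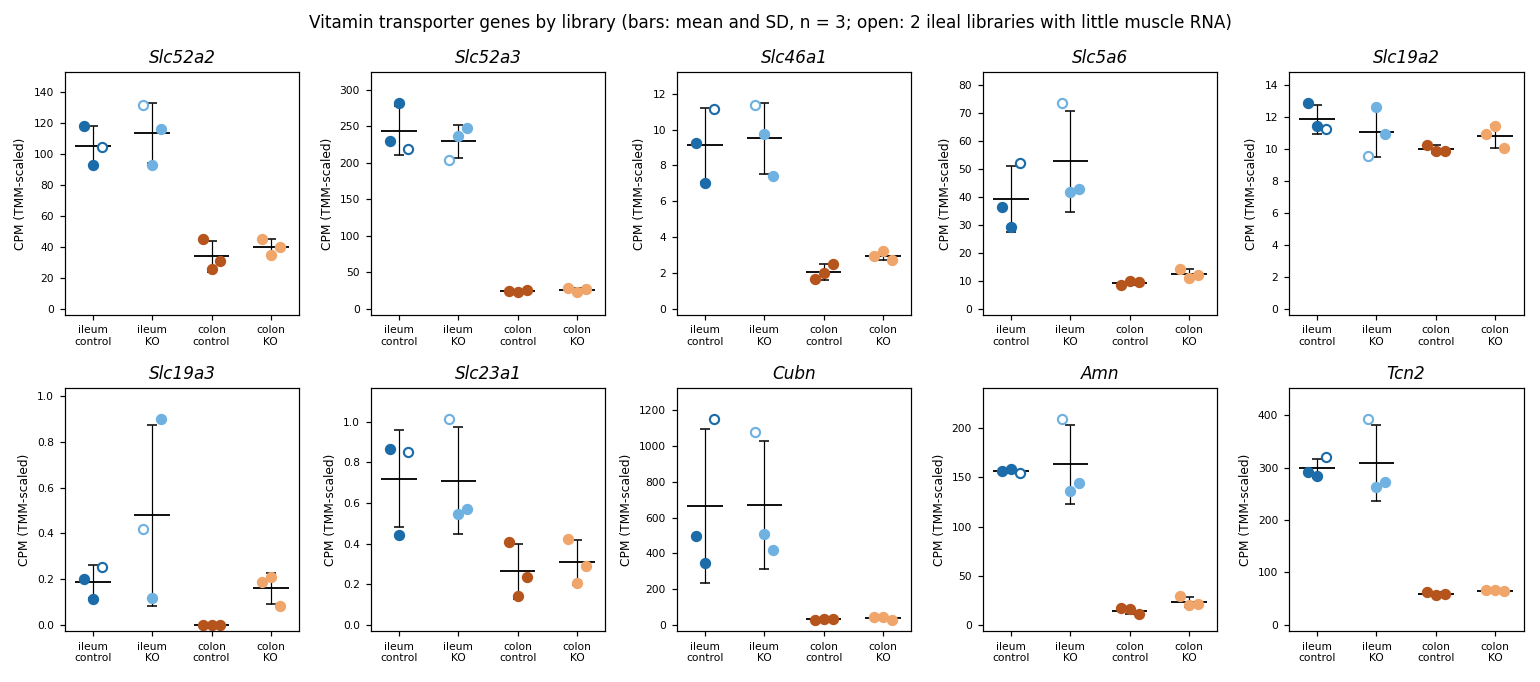
CPM of each of the 10 genes by library, 1 panel a gene with its own axis, in the 4 groups; bars are the mean and SD of 3 libraries and open points the 2 ileal libraries with little muscle RNA. The ileal groups stand above the colonic groups for all but Slc19a2 and Slc19a3, and both open points of Cubn, at 1150.5 and 1078 CPM, stand far above the other ileal libraries.

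Promoters were searched because 8 of the members were called lower in colon of control mice. Windows from base 250 to base 11 before the start of transcription, 240 bases each, came from RefSeq (GRCm38.p6). Of the 10 members, 6 had a window and Slc5a6 had 2, both inside its annotated gene, so 7 windows were searched on both strands. Cubn, Amn, Slc46a1 and Slc5a6 were among the 8, and Slc19a2 and Slc19a3 were not. Slc52a2, Slc52a3, Slc23a1 and Tcn2 had no window. The letters were TTTATNG for CDX factors, GTTAAT for HNF1, CAAAGTC for HNF4 and GGGCGG for SP1, and overlapping matches were counted. TTTATNG was found in 1 of 7 member windows and in 9.51% of all 32851 windows, GGGCGG in 5 of 7 and in 31.3%, GTTAAT in 0 of 7 and in 6.26%, and CAAAGTC in 0 of 7 and in 3.71%. No match says only that these letters are not in the window. The windows of the 2 receptor genes, of the member with a CDX match and of the member that did not pass the test between tissues are shown 5′ to 3′ along the gene, with matches in capitals. They were chosen after the values were seen.
Cubn, chr2:13491887-13492126, minus strand: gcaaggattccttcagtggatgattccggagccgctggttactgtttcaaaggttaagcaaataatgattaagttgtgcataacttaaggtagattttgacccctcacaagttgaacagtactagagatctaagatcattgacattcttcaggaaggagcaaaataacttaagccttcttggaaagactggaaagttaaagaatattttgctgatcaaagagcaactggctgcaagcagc
Amn, chr12:111270846-111271085, plus strand: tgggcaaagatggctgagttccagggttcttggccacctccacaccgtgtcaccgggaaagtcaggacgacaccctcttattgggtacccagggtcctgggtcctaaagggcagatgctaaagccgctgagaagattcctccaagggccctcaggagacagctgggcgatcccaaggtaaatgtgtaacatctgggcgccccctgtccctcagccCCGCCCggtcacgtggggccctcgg
Slc46a1, chr11:78465451-78465690, plus strand: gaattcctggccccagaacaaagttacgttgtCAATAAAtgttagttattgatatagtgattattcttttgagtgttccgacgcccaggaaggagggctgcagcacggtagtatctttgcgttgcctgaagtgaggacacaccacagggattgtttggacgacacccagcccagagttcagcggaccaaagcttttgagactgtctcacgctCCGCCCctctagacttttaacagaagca
Slc19a2, chr1:164248796-164249035, plus strand: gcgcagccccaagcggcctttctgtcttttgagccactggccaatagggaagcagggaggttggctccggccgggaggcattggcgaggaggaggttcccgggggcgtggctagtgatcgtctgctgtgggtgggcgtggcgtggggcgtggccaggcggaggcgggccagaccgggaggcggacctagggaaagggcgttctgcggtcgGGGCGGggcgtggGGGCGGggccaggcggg
The capitals are GGGCGG or its reverse complement, except the first run in Slc46a1, which is the reverse complement of TTTATNG. The window of Slc19a2 held 2 matches of GGGCGG and that of Cubn 0, while those of Slc5a6, which was lower in colon, held 3 and 4 and that of Amn 1.

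The 2 ileal libraries with little muscle RNA differed from the other 4 in several members. Cubn had a mean of 1114 CPM in them and of 442 CPM in the other 4, 2.52 times as much. Slc5a6 was 1.68, Slc46a1 1.35 and Tcn2 1.28 times as high, also without overlap. Slc52a3, at 204 and 219 CPM, lay below the range of the other 4 (230.2 to 282 CPM). Of all genes tested, 23.2% had both libraries above the other 4, and the share with both below was not computed. The 2 libraries belong to different genotypes. Without both of them 7 members were called lower in colon in each genotype and 0 by genotype. Of all genes, 5 were then called by genotype over both tissues and 3 in ileum. Over both tissues the log2 fold change of Slc5a6 was then 0.41 (SE 0.10, edgeR adjusted p = 0.333) and that of Amn 0.34 (SE 0.18, edgeR adjusted p = 0.566). With 1 library left out, that of Slc5a6 ranged from 0.28 to 0.56. Within the other 4, the KO mean of Cubn was 1.101 times the control mean, and between the 2 it was 0.937 times.

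By genotype the question was whether loss of the epithelial metal transporter goes with other vitamin carrier levels. Of the 9 tested members 0 were called over both tissues, as were 0% of all genes, with DESeq2 calling 0 members and 4 genes of all and limma-voom calling 0 members and 1 gene. Over both tissues all 9 log2 fold changes of KO against control were above 0, with a median of 0.17 and a range of 0.00 to 0.43, beside a median of 0.00 over all genes, but those of Slc52a3, Slc19a2, Slc23a1 and Cubn changed sign under other settings. At an unadjusted p under 0.05 there were 2 members, both higher in KO mice, against 1.69% of all genes higher at that level and 642 genes in either direction. These were Slc5a6 (log2 fold change 0.43, SE 0.17, edgeR adjusted p = 0.998, exact permutation p = 0.05) and Amn (0.37, SE 0.17, edgeR adjusted p = 0.998, exact permutation p = 0.08).

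In ileum 0 of 9 members were called and 0 had KO libraries all above the control libraries, against 0% and 2.13% of all genes, with 0 members and 252 genes at an unadjusted p under 0.05, 2 genes called by DESeq2 and 1 by limma-voom. The fold changes lay between -0.10 for Slc19a2 and 0.43 for Slc5a6, with 6 above and 3 below 0. In colon 0 members were called, as were 0% of all genes, and 385 genes of all had an unadjusted p under 0.05 while DESeq2 and limma-voom called 0. All 9 colonic fold changes were above 0, with a median of 0.23, and that of Slc23a1 fell below 0 without colon control replicate 2 (-0.058) or colon KO replicate 1 (-0.078). Of the 9, 4 had every KO library above every control library, namely Slc46a1, Slc5a6, Amn and Tcn2, against 6.98% of all genes, and the exact permutation p of each was 0.1, the smallest 3 libraries against 3 allow. The largest was that of Amn, whose KO mean of 23.4 ± 4.96 CPM (SD, n = 3) was 1.63 times the control mean of 14.4 ± 3.28 CPM (log2 fold change 0.70, SE 0.22, edgeR adjusted p = 1). It was the 1 member with an unadjusted p under 0.05 in colon, where 0.966% of all genes were higher at that level. The values of the other members of this set were 0.53 for Slc46a1 (SE 0.26), 0.43 for Slc5a6 (SE 0.25) and 0.14 for Tcn2 (SE 0.15). The epithelium markers summed to 9407 to 10582 CPM in the colonic control and 9410 to 10443 CPM in the colonic KO libraries, so these sums overlapped. Of the 9 markers 2, Cdx1 and Cdx2, which encode transcription factors of the gut epithelium, also had every colonic KO library above every control library, at 163 to 195 against 130.3 to 143 CPM and at 203 to 254 against 149.9 to 189 CPM. The 7 colonic epithelium markers had a median log2 fold change of -0.31 with 2 above 0, and the 5 endothelium markers a median of 0.41 with 5 above 0. Their part in the values of the members was not tested.

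**Figure D5:**
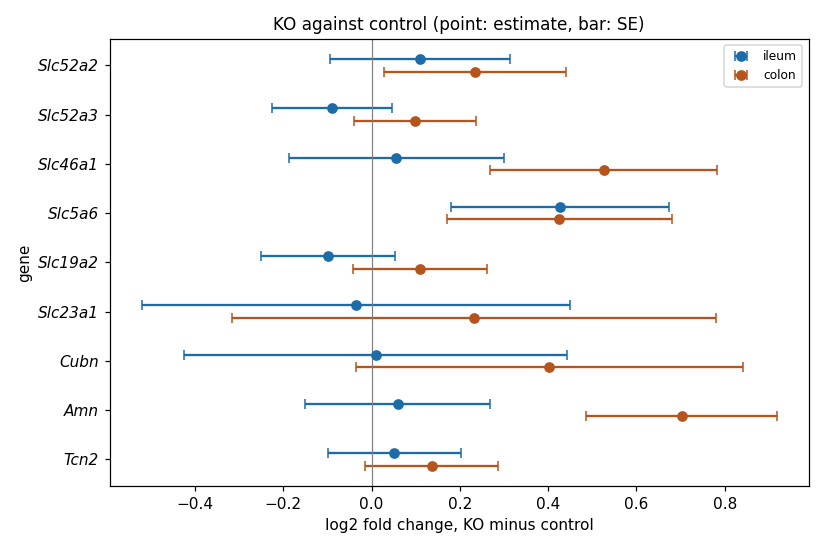
Fold change of KO against control (log2, horizontal axis) for the 9 tested members in ileum and in colon; points are edgeR estimates and bars their SE. Amn in colon, at 0.70, lies farthest from 0, and no member was called in either tissue.

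The other genes of the vitamin pathways did not share the direction of the carriers. Of 64 genes on 7 lists, 57 were tested, and in control mice 14 were higher and 13 lower in colon, 47.4% against 35.9% of all genes. The median log2 fold change was 0.00. In KO mice 13 were higher and 12 lower. The split depended on the scaling, with 17 higher and 10 lower in control mice by upper-quartile factors, 17 and 8 by library size only, and 42 and 4 scaled to the epithelium markers. By genotype 0 of the 57 were called over both tissues, in ileum or in colon.

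By vitamin, 1 of 3 tested riboflavin genes was lower in colon of control mice and 0 were higher. It was Rfk, which makes flavin mononucleotide, at 1048 ± 216 CPM in ileum and 730 ± 103 CPM in colon (SD, n = 3, log2 fold change -0.52, adjusted p = 0.0462). Of 13 folate genes 5 were lower and 2 higher. The export pumps Abcc2 (-3.51, adjusted p = 5.28e-05) and Abcg2 (-1.91, adjusted p = 0.00824) were among the lower ones, and Ggh, which trims folate polyglutamates, was higher in colon, at 70.7 ± 8.28 CPM against 8.17 ± 3.36 CPM (3.12, adjusted p = 3.31e-05).

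Of 13 biotin and pantothenate genes 4 were higher and 2 lower. The lower ones were Vnn1, which frees pantothenate from pantetheine, at 177 ± 89.8 CPM in ileum and 21.01 ± 5.75 CPM in colon (-3.08, adjusted p = 1.52e-04), and Btd, which frees biotin from protein (-1.36, adjusted p = 7.15e-05). Hlcs, which attaches biotin to carboxylases, was higher in colon (0.88, adjusted p = 0.0247). Of 4 tested genes on the list made for ascorbate 3 were higher in colon and 0 lower, which was the other way from Slc23a1. They were Slc2a1, a hexose carrier that also takes up oxidized ascorbate, at 181 ± 16.2 CPM in colon and 13.0 ± 3.68 CPM in ileum (3.79, adjusted p = 1.56e-06), Slc23a2, the other ascorbate carrier, at 86.6 ± 4.93 against 30.2 ± 15.9 CPM (1.51, adjusted p = 0.00387), and Slc23a3 (2.12, adjusted p = 0.00674).

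Of 12 cobalamin genes 3 were higher and 2 lower in colon. The 3 with the largest change were Cd320, the cell-surface receptor of transcobalamin, at 11.5 ± 1.103 CPM in colon and 4.53 ± 0.526 CPM in ileum (1.34, adjusted p = 2.17e-04), the exporter Abcc1 (1.09, adjusted p = 7.19e-04) and the receptor chaperone Lrpap1 (0.82, adjusted p = 1.55e-04). The receptor of the blood carrier thus stood the other way from the carrier Tcn2. Of 8 niacin and pyridoxine genes 2 were higher and 2 lower. Slc5a8, a sodium-coupled carrier of nicotinate and other monocarboxylates, was lower in colon (-1.15, adjusted p = 0.0253), and Nmnat1, a gene of NAD synthesis, was higher (0.51, adjusted p = 0.0746).

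The genes most like each member were found by Pearson correlation of log2 CPM over the 12 libraries, given as a description, since all points share the split between the tissues. Slc52a3 was closest to Acsl5, a fatty acid activating enzyme (r = 0.998), Tcn2 to Grin2a (0.998) and Amn to Smim24 (0.994). Cubn was closest to Leap2, a peptide of the gut and liver (0.994), which was at 3.20 ± 2.17 CPM in ileum of control mice and at 0 in all 6 colonic libraries. Grin2a was also at 0 in all 6 colonic libraries and at 2.05 ± 0.119 CPM in ileum of control mice. The closest genes to Slc5a6, Slc46a1 and Slc52a2 were Ttc36 (0.989), AI427809 (0.988) and Pja1 (0.988). Slc23a1 was closest to Paip1 (0.953), and Slc19a2, with little split between tissues, to Cfdp1 at the lowest value of the members (0.930). On the CPM scale Cubn and Slc19a2 kept these genes, and Amn and Tcn2 were closest to each other (0.996).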

How the data were processed

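Ileal and colonic mucosa RNA of 12 libraries was analysed, 3 for each tissue and genotype, grouped by the sample labels. The authors primed cDNA with oligo-dT, aligned reads with STAR to mm10 and deposited expected counts, which are estimated counts per gene, not normalized. The tool for these estimates was not given in the sources used here, and the division of reads between similar genes is not known. Of 120 member values 2 were not whole, by at most 0.02. The 92 spike-in rows held 0 counts and were left out.

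Counts were rounded. In R 4.3.3, edgeR 4.0.16 kept 16558 genes with filterByExpr over the 4 groups, scaled them with TMM factors (0.83 to 1.18) and gave quasi-likelihood p-values, adjusted by the Benjamini-Hochberg method over all these genes and called under 0.1, the study's threshold. Tissue, single-tissue genotype and interaction contrasts came from a model of the 4 groups, and genotype over both tissues from a model with tissue as an added term. Adjusted p-values are from edgeR unless another tool is named. CPM used the scaled library size. Permutation tests were exact and two-sided, used log2 of CPM plus 0.5 (of the ratio for ratios), and had 20 arrangements in 1 tissue and 400 over both. The labels do not say whether the tissues came from the same mice, or that libraries were separate extractions, so p-values measure the spread between these libraries, taken as independent.

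Alternatives were DESeq2 1.42.0, limma-voom (limma 3.58.1), other scalings, no filter, an adjusted p under 0.05, the replicate number as a block, a muscle marker score as a covariate, the libraries of the comparison alone and each library left out. Leaving out also ileum KO replicate 2, and scaling to the summed epithelium markers, were chosen after seeing the data, as were the ratios. The members, lists, tests and the doubt about 2 ileal libraries were chosen with earlier results of these data known. The text names all members, Slc39a8, up to 3 called genes with the largest tissue change on each vitamin list, any list gene called by genotype, and the 1 gene most correlated with each member. Some genes of the vitamin lists that this rule names are not reported here.

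Coordinates and exon lengths are from GENCODE M21 (GRCm38). The identifiers of 9 members had the same version there, and no coordinates are given for Slc23a1. The steps were tested on simulated data, where edgeR found 41% of 2-fold and 57% of 4-fold tissue changes (16222 genes, 4.85% of calls false). It found 67% and 82% of such genotype changes over both tissues (16220 genes, 10.2% false). There, unchanged genes had the same mean in all libraries, and noise was independent, with no libraries low in muscle RNA. These shares thus do not give the power in the real data, where Slc39a8 over both tissues had an edgeR adjusted p of 0.382. Depth was 16749138 to 27903083 counts a library. Promoters were from RefSeq (GRCm38.p6). Python 3.11.15 and matplotlib 3.10.9 were used for the figures.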

Additional observations from a re-analysis of the deposited data

How the results depend on the processing

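Slc52a2, Slc52a3, Slc46a1, Slc5a6, Cubn, Amn and Tcn2 were called lower in colon in both genotypes under all 25 settings run, and 0 members were called by genotype. The other calls changed: in control mice Slc23a1 was called under 13 of the 25 settings and Slc19a3 by DESeq2 and with no filter. The 13 include the main fit and fits that left out only a KO library. Of the 18 alternatives that bear on the control comparison, the call of Slc23a1 held under 6 and was lost under 12. In KO mice Slc23a1 was called under 1. For Slc19a3 the setting that left 1 library in ileum of KO mice is not counted. Slc19a2 was called higher in colon in both genotypes when counts were scaled to the epithelium markers. That scaling called 46 of 57 vitamin pathway genes in control mice in place of 27, and moved the median log2 fold change of all genes to 0.96. Slc39a8 over both tissues was at a log2 fold change of -1.13 (adjusted p = 0.382). It passed the threshold with DESeq2 (-1.13, adjusted p = 1.25e-05), limma-voom (-1.18, 0.0729), a muscle score as covariate (-1.16, 0.0232) and without both ileal libraries with little muscle RNA (-1.24, 0.0194). Without these and ileum KO replicate 2, which leaves 1 library in ileum of KO mice, the fold change was -1.23. Leaving out 1 library gave -1.24 to -1.06, past the threshold without ileum KO replicate 1 (adjusted p = 0.0864).

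Some fold changes near 0 changed sign. For Slc19a2, colon against ileum was 0.70 in control mice scaled to epithelium, and in KO mice it was 0.093 by upper-quartile factors, 0.24 by library size only, 1.04 scaled to epithelium (adjusted p = 3.16e-04) and -0.13 to 0.071 with 1 library left out. For KO against control over both tissues, Slc52a3 was at -0.0057 by limma-voom, -0.011 by upper-quartile factors, -0.051 scaled to epithelium and -0.046 to 0.067 with 1 library left out, and Slc19a2 at -0.0083 by upper-quartile factors, -0.045 scaled to epithelium and -0.030 to 0.058 with 1 library left out. With 1 library left out Slc23a1 ranged from -0.071 to 0.23 over both tissues and from -0.078 to 0.68 in colon, and Cubn from -0.0057, without ileum KO replicate 1, to 0.53 over both tissues. The cause was not tested.

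Whether a replicate number marks 1 mouse can be asked only between the tissues of a genotype. There the correlation of deviations of same-numbered libraries was -0.080 to 0.165 in control and 0.051 to 0.25 in KO mice. Of these libraries 2 of 6 control and 5 of 6 KO ones correlated best with their own number, which does not settle the question. Over all pairs of groups, also those of different mice, the correlation was -0.69 to 0.40, over 0.1 in 5 of 18 pairs. With the replicate block 8 members were called in control and 8 in KO mice, where Slc23a1 passed (-1.20, adjusted p = 0.0657). Depth limits Slc19a3 and Slc23a1, with at most 20 counts in a library.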
